A study of Homo sapiens with 4 samples.

Results

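TRIM (tripartite motif) genes encode a family of mostly RING-type ubiquitin ligases. They were taken as the protein-coding genes of the count table whose symbol is TRIM followed by a number and at most 1 letter, which gave 73 of 63241 genes. RNA was sequenced from FT190 cells, an immortalised human line of fallopian tube secretory epithelium that the labels call ovarian epithelial, with genotype WT in all libraries. The 2 control libraries carried the PLKO vector, and in the 2 knockdown libraries a hairpin RNA lowered SMARCA4, which encodes a catalytic subunit of BAF (SWI/SNF) nucleosome remodellers. Only 1 hairpin is named, and separate cultures are not mentioned, so each p-value reflects variation among these libraries that may be technical.

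A TRIM protein typically carries a RING domain that recruits the ubiquitin-charged E2 enzyme, a B-box zinc finger and a coiled coil for self-assembly, followed by a C-terminal domain that differs between subfamilies and often binds the substrate. A PRY-SPRY domain is the most common of these ends. Several members are induced by interferon, and act as restriction factors that bind viral components or as ligases that tune RIG-I, MAVS and NF-kB signalling. Others are nuclear corepressors, cytoskeletal proteins or regulators of development. In the comparisons below, 10 members known to be induced by interferon (TRIM5, TRIM14, TRIM21, TRIM22, TRIM25, TRIM26, TRIM34, TRIM38, TRIM56 and TRIM69) are set against the other 63.

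Total counts were 33641343 and 32618516 in control libraries and 28536665 and 27137414 in the knockdown libraries. SMARCA4 stood at 171 and 162 CPM (counts per 1000000) in control libraries and at 34 and 36.3 CPM in the knockdown libraries. The epithelial keratins KRT7, KRT8 and KRT18 and the lineage factor PAX8 were present, while EPCAM was at 7 to 18 counts and KRT19 at 0 to 5 counts in each library, and of the mesenchymal markers VIM and COL1A1 were abundant while COL1A2 was at 1 to 10 counts. The summed level of 8 immune markers was 23.2 and 25.7 CPM in control libraries and 23.6 and 25.2 CPM in the knockdown libraries, nearly all of it from the lysosomal gene CD68. The lymphocyte genes CD3E, MS4A1 and NKG7 were at 0 or 1 count.

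Promoters of 6 of the 7 interferon-linked members that rose held a short sequence in common, which is shown for that reason. The search took GAAANNGAAA, a core of the interferon-stimulated response element to which interferon-activated factors bind, on both strands, in RefSeq windows (GRCh38.p14) from 250 bases before to 50 bases after an annotated start. Windows were found for 58 of the 73 TRIM genes, and TRIM22 had none. The letters below are read in the direction of transcription, 30 bases each, with the matched bases in capitals (TTTCNNTTTC is the same core on the other strand).
TRIM5 (chr11:5685082-5685111, minus strand): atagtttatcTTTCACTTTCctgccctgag
TRIM34 (chr11:5624901-5624930, plus strand): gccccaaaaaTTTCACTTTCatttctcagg
TRIM14 (chr9:98119229-98119258, minus strand): acggccgaggTTTCGGTTTCccttgggagc
TRIM26 (chr6:30213578-30213607, minus strand): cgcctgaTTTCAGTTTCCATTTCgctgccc
TRIM21 (chr11:4393663-4393692, minus strand): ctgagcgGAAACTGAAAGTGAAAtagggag
TRIM69 (chr15:44736456-44736485, plus strand): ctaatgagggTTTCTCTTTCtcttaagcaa
TRIM44 (chr11:35662730-35662759, plus strand): tcctgacgggGAAAGGGAAAgtggaaccgg

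The core lay close before the start in TRIM5 (bases -27 to -18) and TRIM14 (-26 to -17), further up in TRIM69 (-62 to -53), TRIM34 (-90 to -81) and TRIM26 (-194 to -179), and after the start in TRIM21 (18 to 33). In TRIM21 and TRIM26, 2 overlapping matches made a run of 3 GAAA or TTTC units. TRIM5 and TRIM34 matched in the same 10 letters, TTTCACTTTC. The core was in a window of 6 of 9 interferon-linked members with one, and of 4 of 49 other members (TRIM2, TRIM16, TRIM44 and TRIM64C), against 3.57% of all 35116 windows and 4.38% of the 27305 genes with a window. All 6 interferon-linked members with a window that rose held it, and none of the 3 that did not pass the test (TRIM25, TRIM38 and TRIM56). This split depends on the threshold. TRIM26, with the core, changed by 0.16 (log2), less than TRIM38 without it (0.19), and the TRIM26 call did not hold in DESeq2. Of all 8 risen TRIM genes with a window, 6 held the core. Among the 6 is TRIM69, whose counted transcript starts 7527 bases before the RefSeq start of its window and ends before the printed site. The rise of TRIM69 was therefore not counted on a transcript that starts at that window. TRIM44 is shown as the only carrier of the core that fell. A second motif searched in the same windows, TTCNNNGAA, was in 0 of 9 interferon-linked members and in 12 of 49 other members, against 7.66% of all windows and 9.38% of genes with a window. These matches are a description of letters in the windows, and binding was not measured.

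Of the 73 TRIM genes, 45 had enough counts to be tested and 28 did not. Untested members were at 0 in every library in 17 cases, among them the testis-type genes of the TRIM43, TRIM49 and TRIM64 groups. A count of 0 allows up to 0.0915 to 0.109 CPM by library (3 counts, counting error only). The other 11 reached at most 15 counts in any library. TRIM54, a microtubule-binding muscle protein, fell just short of the filter with 11 counts in each control and 2 in each knockdown library, while TRIM29 passed it through 2 control libraries and 1 knockdown library.

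Per length of the counted transcript (RPKM), the most abundant members in control cells were TRIM28 at 56.8, TRIM58 at 46.6, TRIM59 at 42.5, TRIM25 at 27.5 and TRIM37 at 21.8 RPKM. TRIM28, also called KAP1, is the corepressor recruited by KRAB zinc finger proteins, and TRIM37 restrains centriole assembly. TRIM28, TRIM58 and TRIM59 lay close together, and the levels of TRIM58 in the 2 controls (264 and 216 CPM) differed by a wider factor than TRIM58 and TRIM59 did. The span of TRIM59 overlaps those of SMC4 and the read-through gene TRIM59-IFT80, so its level and rank are uncertain. The least abundant tested members were TRIM7 (0.551 RPKM), TRIM29 (0.494) and TRIM66 (0.411). The interferon-linked members ranged from 3.23 RPKM for TRIM34 to 27.5 RPKM for TRIM25, with TRIM26 and then TRIM14 (14.2) next below TRIM25.

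**Figure D1:**
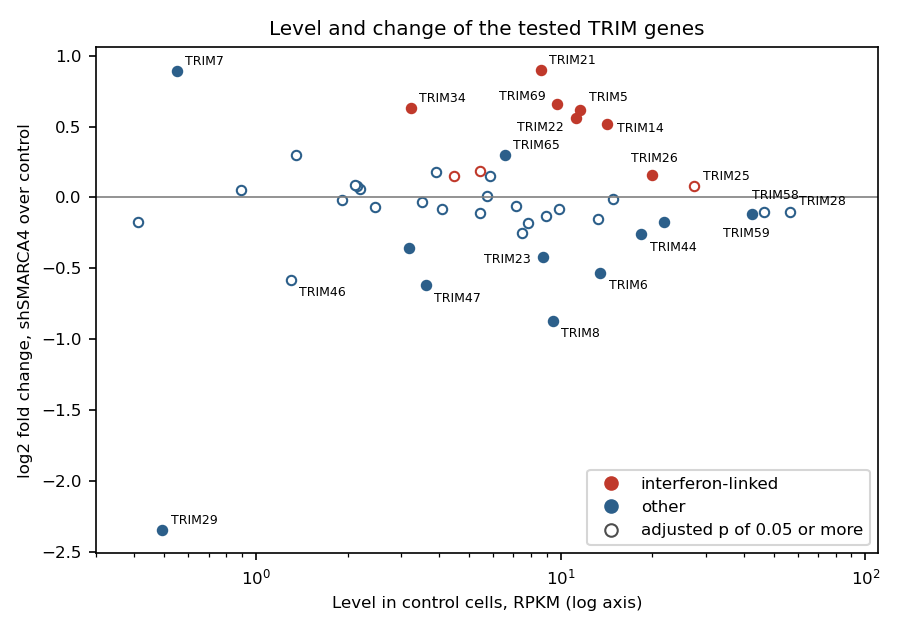
Level in control cells (RPKM, log axis) against the log2 fold change of knockdown over control cells for the 45 tested TRIM genes, 1 point per gene, red for interferon-linked members and open where the adjusted p was 0.05 or more. The most abundant genes, TRIM28, TRIM58 and TRIM59, changed little, and the largest change, in TRIM29, was at 0.494 RPKM.

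The interferon-linked members were higher in SMARCA4-depleted cells and the rest of the family leaned lower. Of 45 tested TRIM genes, 9 rose and 9 fell in edgeR's quasi-likelihood fit (threshold 0.05 after adjustment), or 40% called against 29.7% of all 18781 genes tested. With library totals alone as scaling the split was 11 higher and 7 lower. Among the 10 interferon-linked members, 7 rose and 0 fell, where 13.8% of all genes rose. The median log2 fold change of these 10 was 0.54, and all 10 values were above 0. The knockdown libraries were both above both controls in 9 of the 10, where 32.4% of all genes were. Of the 35 other tested members, 2 rose and 9 fell, where 15.8% of all genes fell, with a median of -0.10, and 17 had both knockdown libraries below both controls, where 33.5% of all genes did. The median over all genes tested was 0.00. This difference between the lists is a description and was not tested, since the members were picked as interferon-induced from general knowledge, with earlier results of these data known.

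The interferon-linked list did not move equally in the knockdown libraries. Relative to the control mean, its median stood at -0.05 and 0.05 (log2) in control libraries, 0.41 in knockdown library 1 and 0.62 in knockdown library 2. A reference list of 20 interferon-stimulated genes outside the family stood at 0.60 and 0.89 in the same 2 libraries, with 19 of 20 risen, so knockdown library 2 was the higher in both lists. The summed level of the 10 TRIM genes was 521.1 and 549.7 CPM in control libraries, 637.3 in knockdown library 1 and 711.0 CPM in knockdown library 2. The other 35 summed to 1723.3 and 1665.8 CPM in control libraries and 1536.4 and 1530.0 CPM in the knockdown libraries. Without TRIM5, TRIM22 and TRIM34, listed as liable to share reads with neighbours or a read-through gene, 4 of 7 interferon-linked members had risen. The median of these 7 was 0.19. The genes left out had all risen, and no counted span was found to overlap that of TRIM22. TRIM59, which overlaps SMC4 and TRIM59-IFT80, was not on that list. The count of other members called was 17 without control library 2 and 7 without knockdown library 1.

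**Figure D2:**
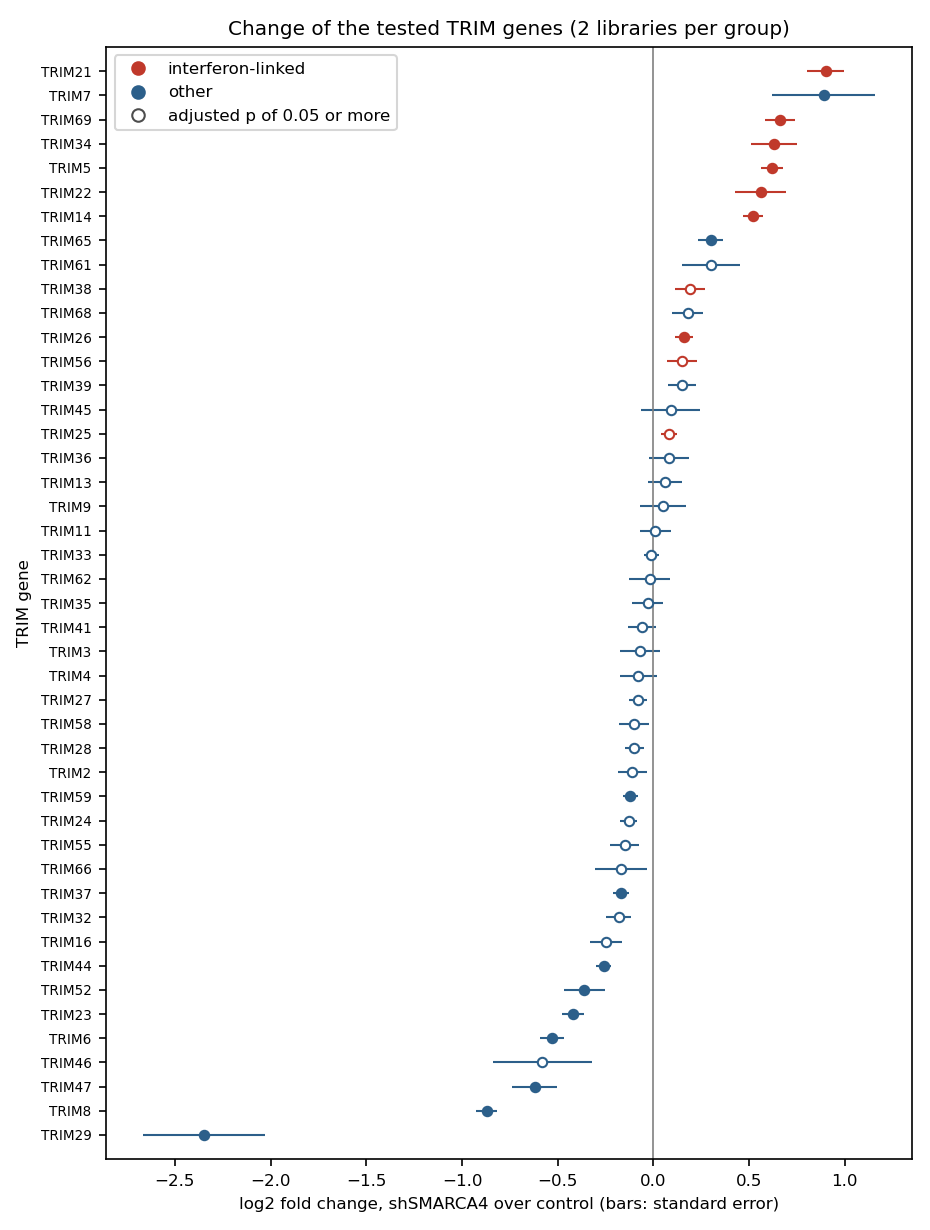
Log2 fold change of knockdown over control cells for the 45 tested TRIM genes, with bars of 1 standard error, red for interferon-linked and blue for other members, filled where the adjusted p was under 0.05. The red points all lie above 0, from 0.08 for TRIM25 to 0.90 for TRIM21, and most blue points lie below 0.

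TRIM21, a cytosolic antibody receptor and ubiquitin ligase that destroys antibody-coated virus, rose most among the interferon-linked members. It stood at 17.1 and 16.1 CPM in control libraries and 28.1 and 34 CPM in the knockdown libraries, with no overlap between groups. This was 1.87-fold higher, a log2 fold change of 0.90 (SE 0.0949, n = 2 in each group) with edgeR quasi-likelihood adjusted p = 2.00e-04. The gene (ENSG00000132109.10) lies on chromosome 11 from 4384897 to 4393702 on the minus strand of hg38.

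TRIM5, TRIM34 and TRIM22 lie side by side on chromosome 11 and encode restriction factors, TRIM5 and TRIM34 of retroviral capsids and TRIM22 of several viruses. TRIM5 (5663195 to 5685074, minus strand) was at 38.8 and 39 CPM in control libraries and 57.4 and 62.4 CPM in the knockdown libraries, 0.62 on the log2 scale (SE 0.0554, edgeR quasi-likelihood adjusted p = 8.5e-05). TRIM34 (5625001 to 5644398, plus strand) went from 6.65 and 8.06 to 10.6 and 12.1 CPM, 0.63 (SE 0.121). TRIM22 (5689610 to 5710760, plus strand) was the most variable of the 3, at 45.2 and 56.3 CPM in control libraries and 64.4 and 85.7 CPM in the knockdown libraries, 0.56 (SE 0.131). Groups did not overlap for any of the 3. The counted TRIM22 transcript is a retained-intron model in GENCODE release 29 that covers 423 of 1494 coding bases, although the model differs between releases. The TRIM22 call (adjusted p = 0.011) did not hold in DESeq2 or in a fit with no filter on low counts.

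Their neighbour TRIM6, the nearest member before TRIM34 on the plus strand (5596637 to 5612952), moved the other way. TRIM6 makes free ubiquitin chains that help activate the kinase IKK-epsilon in interferon signalling. Its levels were 43.9 and 48.1 CPM in control libraries and 32.2 and 31.5 CPM in the knockdown libraries, a fall of 1.45-fold (log2 fold change -0.53, SE 0.0608, edgeR quasi-likelihood adjusted p = 3.14e-04). The read-through gene TRIM6-TRIM34, which overlaps both, was at 21.3 and 23.6 CPM in control libraries and 21.5 and 22.3 CPM in the knockdown libraries and did not pass the test (-0.04 ± 0.0733 SE, adjusted p = 0.761). How its reads were divided with TRIM6 and TRIM34 is uncertain, so both values are uncertain to that extent. Another protein-coding gene overlaps the spans of TRIM5, TRIM6 and TRIM34. It had 112 and 103 counts in control libraries and 129 and 164 in the knockdown libraries. Any sharing of its reads with these genes was not measured.

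**Figure D3:**
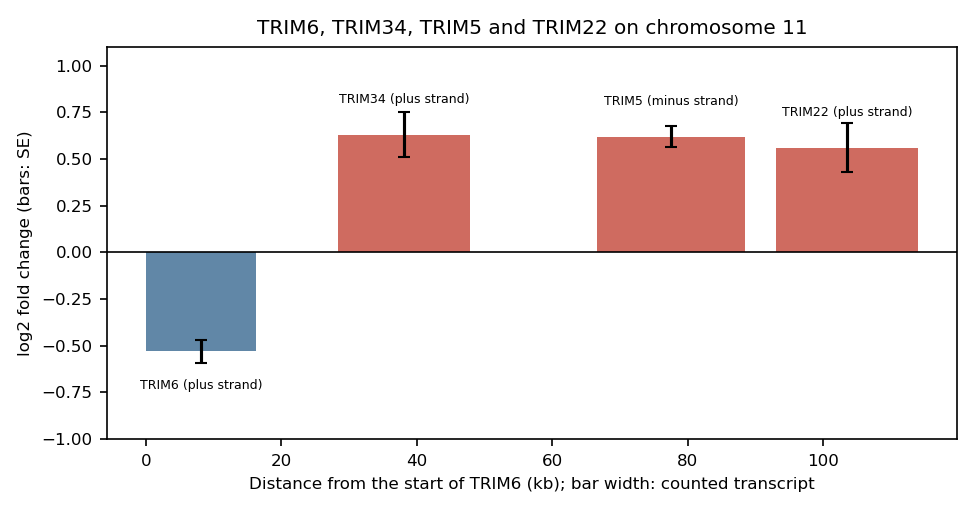
Log2 fold change (bars of 1 standard error) of TRIM6, TRIM34, TRIM5 and TRIM22 against distance from the start of TRIM6 in kb, each box as wide as the counted transcript. TRIM6 stands at -0.53 and its 3 neighbours between 0.56 and 0.63.

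TRIM14 and TRIM69 rose by similar factors. TRIM14, which has no RING domain and serves as an adaptor of MAVS at mitochondria, was at 61.9 and 65.4 CPM in control libraries and 88.5 and 94.4 CPM in the knockdown libraries (0.52, SE 0.0516, edgeR quasi-likelihood adjusted p = 1.41e-04). It lies on chromosome 9 (98084353 to 98119222, minus strand). TRIM69, a ligase that restricts vesicular stomatitis virus, was at 28.9 and 33.1 CPM in control libraries and 46.1 and 51.6 CPM in the knockdown libraries (0.66, SE 0.0785, adjusted p = 3.91e-04). The transcript counted for TRIM69 (chromosome 15, 44729001 to 44734000) has 2 exons, and in GENCODE release 29 these cover 0 of the 1500 coding bases of the gene. The TRIM69 value is therefore that of a transcript annotated there as non-coding, which starts 7527 bases before the RefSeq start whose window is printed above. Without TRIM69 the interferon-linked list held 6 risen genes of 9 and a median of 0.52.

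The remaining interferon-linked members were near their control level. TRIM26, a ligase encoded in the MHC region of chromosome 6, rose slightly, from 70.7 and 69.3 CPM to 75.8 and 80.7 CPM (0.16, SE 0.0483, edgeR quasi-likelihood adjusted p = 0.0332). That call did not hold in DESeq2, in a fit with no filter or without knockdown library 2. TRIM25, which ubiquitinates the RNA sensor RIG-I and assists the antiviral protein ZAP, was at 158 and 157 CPM in control libraries and 162 and 170 CPM in the knockdown libraries and did not pass (0.08, SE 0.0421, adjusted p = 0.205). It passed with library totals alone. TRIM38, an inhibitor of TLR and TNF signalling, stood at 47.6 and 54.5 CPM against 54.5 and 61.8 CPM (0.19, SE 0.0773). TRIM56, an antiviral ligase that acts on DNA and RNA sensing, stood at 46.5 and 50.8 CPM against 49.6 and 58.2 CPM (0.15, SE 0.0773) with overlapping groups. Neither passed the test (adjusted p = 0.0987 and 0.189), though both did without control library 2 or without knockdown library 1, as TRIM38 did with library totals.

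**Figure D4:**
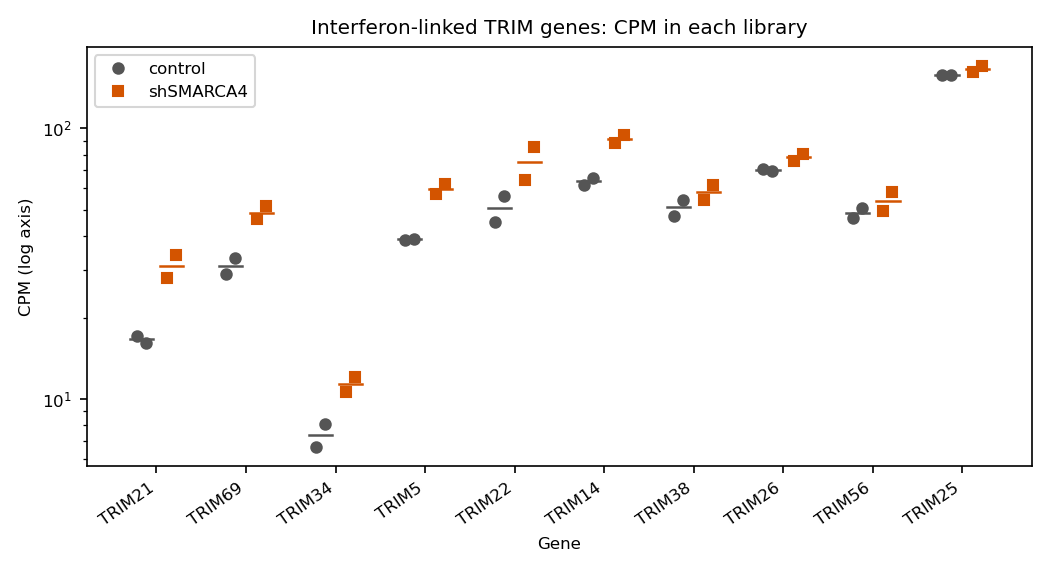
CPM (log axis) of the 10 interferon-linked TRIM genes in each library, circles for controls and squares for knockdown libraries, with lines at the group means. From TRIM21 to TRIM14 the squares stand clear of the circles, and for TRIM38, TRIM26, TRIM56 and TRIM25 the 2 groups are close or overlap.

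PML, the nuclear body protein also known as TRIM19, is another interferon-induced member of the family under a different symbol. It was at 53.7 and 54.9 CPM in control libraries and 53.5 and 58.3 CPM in the knockdown libraries and did not pass the test (0.04, SE 0.0545, adjusted p = 0.605). Its sign turned without knockdown library 2 (-0.02). The microtubule-associated relatives MID1 (0.10 ± 0.0494 SE) and MID2 (0.09 ± 0.0633 SE) also did not pass, although MID1 did with library totals or without control library 1. CMYA5, a muscle relative, was at 0.732 and 0.744 CPM in control libraries and 1.31 and 1.7 CPM in the knockdown libraries, and rose (1.02 ± 0.256 SE). Of the 8 relatives tested, the read-through genes included, CMYA5 was the only one called.

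TRIM8 showed the clearest fall in the family. This ligase regulates p53 stability and NF-kB signalling. TRIM8 (chromosome 10, 102642503 to 102658318, plus strand) stood at 44.7 and 44.3 CPM in control libraries and 23.9 and 24.7 CPM in the knockdown libraries, 1.83-fold lower (log2 fold change -0.87, SE 0.0547, edgeR quasi-likelihood adjusted p = 1.6e-05). Values within a group differed by under 1 CPM, far less than the gap between groups. The divergent non-coding gene TRIM8-DT, whose span overlaps that of TRIM8 by 1349 bases on the other strand, was also lower, with 126 and 136 counts in control libraries and 53 and 66 counts in the knockdown libraries. Counting did not use strand, so reads in any shared exon cannot be told apart.

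TRIM29 had the largest fold change at a low level. It has no RING domain, binds p53 and is typical of basal epithelia. Counts were 44 and 51 in control libraries and 7 and 9 in the knockdown libraries, or 1.34 and 1.58 CPM against 0.242 and 0.326 CPM, a 5.10-fold lower level (-2.35, SE 0.318, edgeR quasi-likelihood adjusted p = 7.41e-04). Summed marker lists were lower beside it. The epithelial list went from 1840 and 1730 CPM to 1240 and 1250 CPM, and the mesenchymal list from 4820 and 4890 to 3800 and 3930 CPM. Of the tested markers, 3 of 6 epithelial and all 5 mesenchymal ones fell, where 15.8% of all genes fell. The epithelial markers EPCAM, CDH1 and PAX8 did not pass the test. The part of these marker shifts in the TRIM29 value was not tested.

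TRIM47 and TRIM65 are neighbours on chromosome 17, 10.4 kb apart on the minus strand, that moved in opposite directions. TRIM47, a RING and PRY-SPRY ligase, fell from 7.84 and 8.46 CPM to 5.59 and 5 CPM (-0.62, SE 0.117, edgeR quasi-likelihood adjusted p = 0.00421). TRIM65, which ubiquitinates the RNA sensor MDA5, rose from 21.4 and 23 CPM to 26.9 and 27.6 CPM (0.30, SE 0.0658, adjusted p = 0.00926). The groups did not overlap in either gene. The TRIM65 call was lost without knockdown library 2. A non-coding gene on the other strand shares 2210 bases with the span of TRIM47. It had 59 and 66 counts in control libraries and 31 and 28 in the knockdown libraries. Since counting did not use strand, the TRIM47 counts are uncertain to that extent.

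TRIM23, unusual in ending in an ARF-type GTPase domain, fell from 33 and 34 CPM to 24.5 and 25.5 CPM (-0.42, SE 0.0589, edgeR quasi-likelihood adjusted p = 8.54e-04). TRIM44, which carries a ubiquitin-protease-type zinc finger in place of a RING, fell from 240 and 238 CPM to 200 CPM in both knockdown libraries (-0.26, SE 0.038). Both falls were small in fold but well outside the spread within groups. TRIM52 (-0.36, SE 0.109), TRIM37 (-0.17, SE 0.0419) and the membrane protein TRIM59 (-0.12, SE 0.04) also fell. None of these 3 calls held in DESeq2, in a fit with no filter or without either knockdown library. The TRIM52 call also failed with library totals or without control library 2, and that of TRIM59 with RLE, upper-quartile or library-total scaling. TRIM59 overlaps the far more abundant SMC4 on the other strand and the read-through gene TRIM59-IFT80 on its own strand. TRIM52 overlaps a non-coding gene on the other strand, with 183 and 233 counts in control libraries and 149 and 142 in the knockdown libraries. The counts of TRIM59 and TRIM52 are therefore uncertain.

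TRIM7, a partner of glycogenin, was the other member outside the interferon list that rose, from 25 and 19 counts in control libraries to 39 and 32 in the knockdown libraries (0.762 and 0.589 against 1.35 and 1.16 CPM, 0.89 with SE 0.27). Its adjusted p from edgeR was 0.0355. The call did not hold with DESeq2, with no filter, without control library 2 or without either knockdown library.

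**Figure D5:**
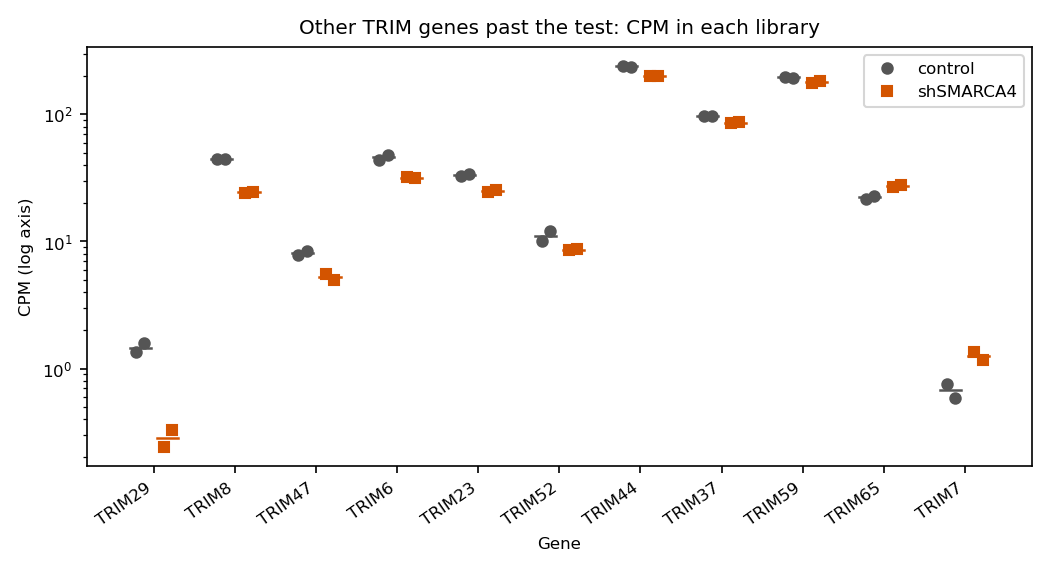
CPM (log axis) of the 11 other TRIM genes past the test in each library, circles for controls and squares for knockdown libraries, with lines at the group means. The groups do not overlap in any of the 11, and the widest gap is in TRIM29, at 1.34 and 1.58 against 0.242 and 0.326 CPM.

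By domain, 0 of the 4 members with a PHD finger and bromodomain, nuclear corepressors, passed the test, where 29.7% of all genes did, too few members to set against that share. All 4 values were below 0, and 3 had both knockdown libraries below both controls, as 33.5% of all genes did. The 4 values were those of TRIM24 (-0.13), TRIM28 (-0.10), TRIM33 (-0.01, with overlapping groups) and TRIM66 (-0.17). TRIM33, a regulator of SMAD4, was at 124 CPM in both controls and 125 and 122 CPM in the knockdown libraries. TRIM28 was at 197 and 181 CPM against 178 and 174 CPM (SE 0.049, edgeR quasi-likelihood adjusted p = 0.147) and passed only without control library 2. Members with NHL repeats (3 tested) and with a COS box that binds microtubules (4 tested) had none past the test either. Of the 5 members that lack a RING, 1 rose (TRIM14) and 2 fell (TRIM29 and TRIM44). Both transmembrane members were tested and 1 fell (TRIM59). Of 3 with another C-terminal domain, 2 fell (TRIM23 and TRIM37), and of 4 with a RING and B-box but no C-terminal domain, 2 fell (TRIM8 and TRIM52). Outside all 7 of these domain lists, 21 members were tested, mostly PRY-SPRY proteins, of which 8 rose and 2 fell, and 6 of the 8 are interferon-linked. Over all genes 13.8% rose and 15.8% fell, and most of these lists hold too few members to set against those shares. Muscle-type members were at or near 0 except TRIM55, at 37.3 and 31.9 CPM against 31.8 and 30.8 CPM, while 5 skeletal muscle markers summed to at most 0.793 CPM in any library.

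The log2 fold changes of the other tested members that did not pass ran from -0.58 (SE 0.257) for TRIM46 to 0.30 (SE 0.152) for TRIM61. TRIM46, which bundles microtubules in the axon, ranged from 3.02 to 5.18 CPM in control libraries and from 2.38 to 3.12 CPM with the hairpin. Its groups therefore overlap and its estimate is loose. A protein-coding gene on the other strand overlaps its span, with 976 and 879 counts in control libraries and 910 and 810 in the knockdown libraries. Because counting did not use strand, the TRIM46 counts are uncertain to that extent. TRIM16 (-0.25, SE 0.0835, edgeR adjusted p = 0.0512), a regulator of autophagy at damaged lysosomes, and TRIM32 (-0.18, SE 0.0653, edgeR adjusted p = 0.0634), an NHL-repeat ligase linked to muscle disease, lay just outside the threshold. TRIM16 stood at 26.4 and 23.6 CPM with the control vector and 19.8 and 22.2 CPM with the hairpin. A protein-coding gene on the same strand overlaps its span, with 517 and 435 counts in control libraries and 301 and 360 in the knockdown libraries. The TRIM16 counts are uncertain to that extent. TRIM24, a ligase of p53, was also near the threshold (SE 0.0441, edgeR adjusted p = 0.0603). It was at 75.7 CPM in both controls and 68.4 and 70.4 CPM with the hairpin. On chromosome 11, TRIM68, listed with TRIM21 in the same cluster, did not pass (0.18, SE 0.0804). Of the 6 members of that cluster 4 rose and 1 fell, where 13.8% of all genes rose and 15.8% fell. The 4 are TRIM5, TRIM21, TRIM22 and TRIM34, interferon-linked members already counted above. In the MHC region list, 1 of 4 tested members rose (TRIM26), too few members to set against the 13.8%. There TRIM27 (-0.08), TRIM38 and TRIM39 (0.15, SE 0.0741) did not pass.

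Genes that work with TRIM proteins were counted from lists of the same making. Of 13 E2 enzymes, 3 rose (UBE2V1, UBE2D1 and UBE2D4) and 1 fell (UBE2V2), a share called of 30.8%, near the 29.7% of all genes. UBE2V1 (0.18, SE 0.0398) and UBE2V2 (-0.21, SE 0.0432) are alternative partners of UBE2N in building ubiquitin chains. Among 13 genes of the KAP1 corepressor and its partners, 1 rose and 5 fell, where 13.8% of all genes rose and 15.8% fell, with the heterochromatin protein CBX5 (-0.32, SE 0.0371), the remodeller CHD4 (-0.30, SE 0.0372) and the deacetylase HDAC1 (-0.21, SE 0.0433) lower while TRIM28 did not pass. In the RIG-I pathway, 8 of 15 rose and 2 fell, against the same shares of 13.8% and 15.8%. The transcription factor IRF7 (1.27, SE 0.149) had the largest change. The sensors RIGI (0.80, SE 0.0741) and IFIH1 (1.12, SE 0.0713), targets of TRIM25 and TRIM65, rose, and the adaptor MAVS (-0.49, SE 0.0653), partner of TRIM14, fell from 60.5 and 68.6 CPM to 46.9 and 45.1 CPM.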

How the data were processed

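Raw counts per gene came from the authors' deposited table. The command in its header names 6 libraries, and count columns were present for 4. HOMER (analyzeRepeats, exons, both strands, 1 transcript per gene, no normalization) was run with GENCODE release 45 and hg38, per the file headers. Transcript length is in bases, per the file headers. The submitters' processing notes also name STAR 2.6.1c and DESeq2 1.19.38. Here filterByExpr (count minimum 10) kept 18781 of 63241 genes. TMM-scaled counts were tested two-sided with glmQLFit and glmQLFTest of edgeR 4.0.16 (R 4.3.3), Benjamini-Hochberg adjusted across every tested gene, threshold 0.05. SE is the absolute log2 fold change over the square root of F. CPM uses the scaled totals of kept genes, and RPKM divides mean CPM by transcript length in kb. With 2 libraries against 2, an exact permutation test cannot go below p = 0.333. Counts of 18539 genes were simulated at the common dispersion (biological coefficient of variation 0.0413), with few genes changed. Recovery was 31.9% for 1.2-fold changes, 70% for 1.5-fold, 90% for 2-fold and 98% for 4-fold. Differences in spread between genes were not simulated, so these shares need not hold in the data. Of 77 promoter windows, 63 ended in bases of a GENCODE release 29 transcript of the gene, and 0 in the opposite orientation. The members and lists were chosen with earlier results of these data known. Named genes were all tested interferon-linked members, other members past the threshold (at most 12), the 5 most abundant, PML, MID1, MID2, SMARCA4 and up to 3 per companion list by adjusted p. Others were named after their values were seen. Alternatives were scaling, filters, DESeq2 1.42.0, limma-voom (limma 3.58.1), a replicate block, protein-coding genes alone, other lists, leaving out each library and, chosen after seeing the data, leaving out TRIM69.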

Additional observations from a re-analysis of the deposited data

How the results depend on the processing

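Over 13 refits, including the replicate block and limma-voom, 27 genes were followed, and 13 of them kept their call and direction in every one. These were SMARCA4, TRIM5, TRIM6, TRIM8, TRIM14, TRIM21, TRIM23, TRIM29, TRIM34, TRIM44, TRIM47 and TRIM69, and also MID2, which never passed the test. Signs turned for 2 genes that had not passed the test, PML (-0.02 without knockdown library 2, range -0.02 to 0.11 with 1 library left out) and TRIM58 (0.06 without control library 1, range -0.24 to 0.06). DESeq2 called 3555 genes in all and 7 TRIM genes outside the interferon list, and a fit with no filter called 3187 genes, against 5572 and 11. The cause was not tested. Without the genes listed as liable to share reads, 4 interferon-linked members passed the threshold and the list had a median of 0.19, with fewer members left. The median of the other members was -0.05 with library totals, -0.08 with upper-quartile scaling and -0.08 with the narrow interferon list of 7 genes. Leaving out 1 library leaves an arm of 1, assumed to vary like the other group, although chi-square per degree of freedom between replicates was 6.33 in controls and 1.88 in knockdown libraries. These fits gave 7 to 17 other members called, medians of -0.12 to -0.07 for them and 0.41 to 0.63 for the interferon-linked list, of which 6 to 9 rose and 0 fell. All genes called ranged from 3801 to 4059 without a knockdown library and from 6640 to 7446 without a control, and TRIM genes from 14 to 26. Same-numbered libraries hardly deviated together over all tested genes (correlation 0.0754). In the interferon-linked list, library 2 was the higher in both groups (medians of -0.05 and 0.05 in controls, 0.41 and 0.62 in knockdown libraries). Whether same-numbered libraries share more than a number was not tested. With the replicate block, 24 TRIM genes were called (11 higher and 13 lower), 9 of them interferon-linked, with TRIM38 and TRIM56 now past the threshold. The lowest counts among called members were those of TRIM7 and TRIM29, and 28 members had too few counts to test.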

Other observations

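The counted transcript was unlike the coding gene for members besides TRIM69 and TRIM22. For TRIM7 it covered 618 of 1533 coding bases, and for TRIM27 and TRIM41 it was a retained-intron transcript of GENCODE release 29 that covered the whole coding part. TRIM27 (-0.08 ± 0.0482 SE) and TRIM41 (-0.06 ± 0.0732 SE) did not pass the test.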
